A study of Mus musculus with 39 samples.

Results

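The collagen genes are described here as a family: every gene whose symbol is Col, a number, the letter a and a number. They were 44 of the 47561 genes in the table, grouped by the kind of assembly their chains form into 11 fibrillar, 8 basement membrane and 25 other collagens. The other collagens were 9 fibril-associated, 6 beaded filament, 4 membrane-spanning and 3 short-chain network collagens, with 3 anchoring fibril or unclassed ones. The values are from whole-brain RNA of mice given saline, or soman under the skin. Its doses were 1/10, 1/5 and 1/2 LD50, LD50 being the median lethal dose, and brains were taken at day 1, 3, 7 or 14. Soman is an organophosphate nerve agent that inhibits acetylcholinesterase. There were 3 libraries in each of the 12 soman groups and in 1 saline group, 39 in all. The labels give no strain, sex or age, no number of animals behind a library and no statement of whether soman was given once or more often. They give no day for the saline mice, so treatment and collection day cannot be told apart in any comparison with saline. Replicates are named as biological, and the p-values below measure the spread between these libraries.

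Collagens are secreted proteins whose chains wind into rope-like helices. The fibrillar ones pack side by side into tension-bearing fibres, and the basement membrane ones join into sheets under endothelium and epithelium and around vascular mural cells. In the brain most fibrillar collagen lies in the meninges and around larger vessels, where fibroblasts make it, while the type IV network lines every vessel and the pial surface. Several of the remaining collagens are made by neurons or glia, among them the membrane-spanning type XXV and type XIX. In bulk tissue, fewer cells of a type and less RNA per cell cannot be told apart, and this holds for every change given here.

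Values are FPKM, fragment counts divided by transcript length and by library size, so levels can be compared between genes as amounts per length. The depth of each library is unknown, since low values did not resolve into whole reads. The FPKM of a library summed to 296322 to 342231. Mitochondrial genes took 7.17% to 27.6% of it, and replicates 2 and 3 of 1/10 LD50 at day 7 were the highest, at 23.1% and 27.6%. In 7 libraries many genes lay midway between the values of the group's other libraries. They comprised replicate 3 of saline, of every dose at day 1 and of 1/10 and 1/5 LD50 at day 14, and replicate 2 of 1/10 LD50 at day 7. Most counts of called collagens are given with and without these libraries. Sums, ranges, counts of non-overlap, chain ratios and results for other gene lists include them. All 8 neuron markers and 2 of 10 markers of cartilage, bone and muscle reached 1 FPKM in at least 3 libraries.

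All 44 collagens were above 0 FPKM in all 39 libraries, over a wide range of levels. In saline the type IV chains of vessels were highest, with Col4a1 at 13.7 ± 0.448 FPKM and Col4a2 at 13.5 ± 0.329 (SD, n = 3, as for every mean below). Col6a1, a chain of beaded microfilaments, stood at 12.3 ± 2.35, and Col1a2, a chain of type I collagen, at 11.4 ± 0.801. The spread of these neighbours overlapped, and so did that of Col9a3 at 10.5 ± 1.88, so the order of these 5 is not resolved in full. Col9a3 is a chain of the type IX collagen that coats fibrils. Below it came Col25a1 at 7.35 ± 0.355, a membrane-spanning collagen of neurons. Col18a1, the basement membrane collagen that carries endostatin, stood at 7.00 ± 0.663 and Col11a2, a fibrillar chain known from cartilage, at 6.77 ± 1.12. Lower again were Col6a2 (6.03 ± 0.551), Col3a1 (5.90 ± 0.557), the type III chain of vessel walls and soft tissue, and Col1a1 (5.22 ± 0.190), the partner chain of Col1a2. The lowest was Col10a1, the collagen of hypertrophic cartilage, at 0.0688.

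**Figure D1:**
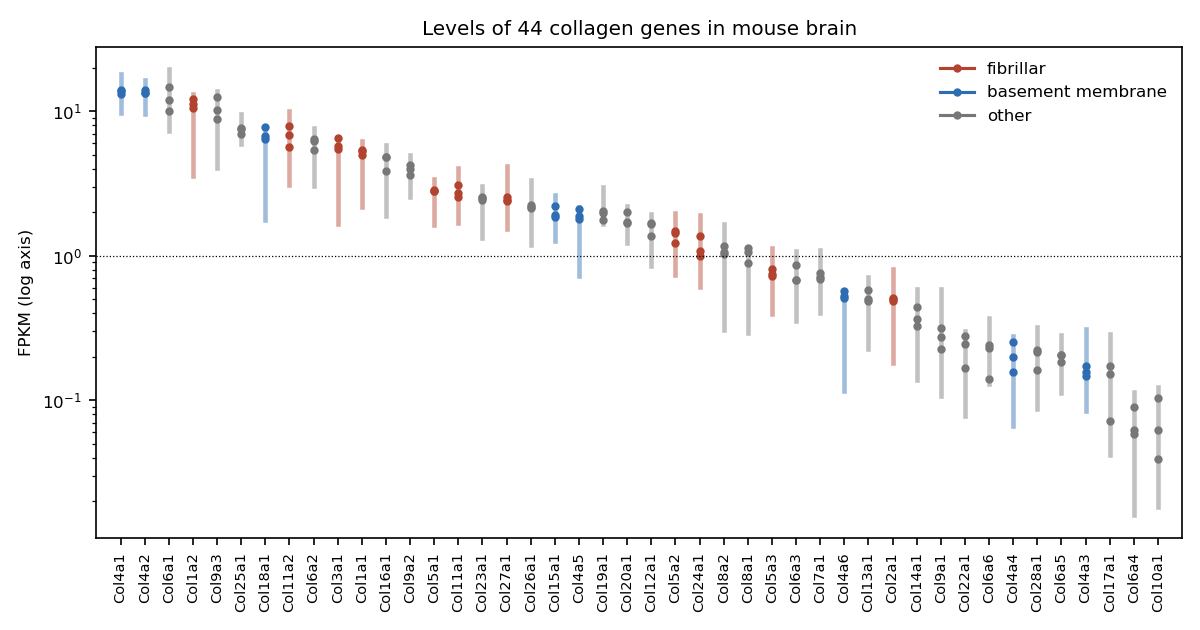
FPKM of each collagen on a log axis. Points are the 3 saline libraries, bars span the 36 soman libraries and the dotted line marks 1 FPKM. Col4a1, Col4a2, Col6a1 and Col1a2 lie at the top, and 17 members were not tested because they seldom reached 1 FPKM.

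Summed over the 44 genes, collagen FPKM was 139, 139 and 144 in the saline libraries. It ranged from 129 to 159 at day 1, with libraries on both sides of saline. At day 3 it was 118 to 129 and at day 14 98.1 to 108, below every saline library in 9 of 9 libraries at each. At day 7 it was 92.1 to 139, below saline in 8 of 9. Fibrillar collagens summed to 38.6 to 44.1 FPKM in saline and to 27.5 to 33.2 at day 3. Basement membrane collagens summed to 38.7 to 39.8 in saline and to 26.1 to 32.3 at day 14.

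Tests were made with limma on log2(FPKM + 1) over the 14701 genes that reached 1 FPKM in at least 3 libraries, and p-values were adjusted over all of these (Benjamini-Hochberg). A gene is said to have risen or fallen where its adjusted p was below 0.05, and log2 changes are on the log2(FPKM + 1) scale, which understates changes of low genes. Of the 44 collagens 27 passed the filter: 9 fibrillar, 5 basement membrane and 13 others. Col8a1 was just inside it, with 3 libraries at 1 FPKM or more (1.07 and 1.13 in saline, 1.06 at day 1), so it was tested only because saline was high. Col5a3 and Col6a3, with 2 such libraries, and Col7a1, with 1, were just outside. All 12 comparisons with saline share the same 3 saline libraries, so a call repeated among them is not a separate observation.

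**Figure D2:**
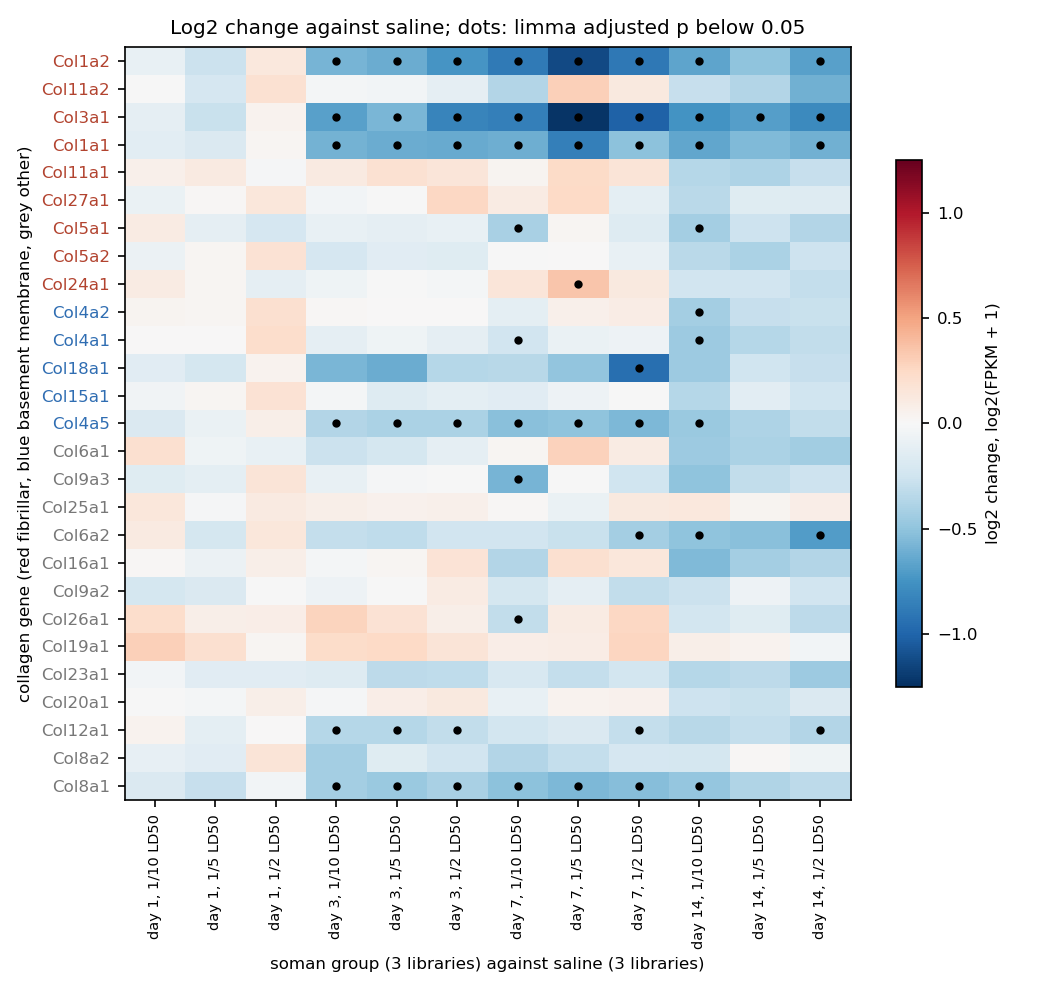
Log2 change of the 27 tested collagens (rows, by kind and level) in each soman group against saline (columns), on the log2(FPKM + 1) scale. Dots mark adjusted p below 0.05 in limma. There are none at day 1 and 6 per dose at day 3.

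At day 1 no collagen rose or fell at any dose in limma, while 1, 2 and 3 of the 27 had an unadjusted p below 0.05 at 1/10, 1/5 and 1/2 LD50. Of all tested genes 0.347%, 0.0136% and 0.116% were called in these comparisons. Col3a1 at day 1 ranged from 4.43 through a median of 5.32 to 6.62 FPKM over the 9 libraries of the 3 doses, against 5.44 to 6.52 in saline. Col4a1 ranged from 12.3 through 14.3 to 18.0, against 13.2 to 14.1. Both genes overlapped with saline.

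At day 3 the type I and type III chains were down, while the other fibrillar chains and the vessel network chains Col4a1 and Col4a2 were not called. At each dose 6 of the 27 collagens fell and none rose: Col1a1, Col1a2 and Col3a1 (3 of 9 fibrillar), Col4a5 (1 of 5 basement membrane), and Col8a1 and Col12a1 (2 of 13 others). Since Col8a1 entered the test through its high saline values, its fall is a description, and 5 falls remain without it. Among all tested genes 5.36%, 6.12% and 4.65% fell and 1.61%, 2.48% and 3.79% rose at 1/10, 1/5 and 1/2 LD50. The median log2 change of the 27 was -0.10, -0.11 and -0.11, beside 0.00, 0.01 and 0.04 over all tested genes.

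Col3a1 was at 6.52, 5.44 and 5.75 FPKM in saline. At day 3 it ranged from 2.68 through a median of 3.04 to 4.86 over 9 libraries. Every library of day 3 lay below every saline library. Its log2 change was -0.68 ± 0.13 (SE), -0.57 and -0.82 at rising dose, with adjusted p of 0.00202, 0.00655 and 0.000444 in limma. Col1a2 was at 12.2, 10.6 and 11.3 FPKM in saline and at 5.38 through 7.13 to 8.02 at day 3. Col1a1, the other chain of type I collagen, was at 5.35, 5.00 and 5.31 in saline and at 2.48 through 3.12 to 3.72. For both chains the day 3 and saline libraries did not overlap, and the log2 changes lay between -0.59 and -0.74 for Col1a2 and between -0.59 and -0.63 for Col1a1 (limma adjusted p 0.00184 to 0.0107).

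Col4a5, a type IV chain of narrower distribution than Col4a1, was at 1.81, 1.87 and 2.09 FPKM in saline and at 1.11 through 1.19 to 1.43 at day 3. Col8a1, a short-chain collagen that forms hexagonal sheets beneath endothelia, was at 1.07, 0.887 and 1.13 in saline and at 0.352 through 0.549 to 0.623. Col12a1, which sits on the surface of type I fibrils, was at 1.67, 1.65 and 1.37 and fell to 0.886 through 1.04 to 1.11. None of the 9 libraries of day 3 reached the lowest saline library for these 3 genes. Their log2 changes were -0.37, -0.40 and -0.39 for Col4a5, -0.43, -0.47 and -0.41 for Col8a1 and -0.35, -0.36 and -0.31 for Col12a1 (limma adjusted p 0.0017 to 0.02).

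**Figure D3:**
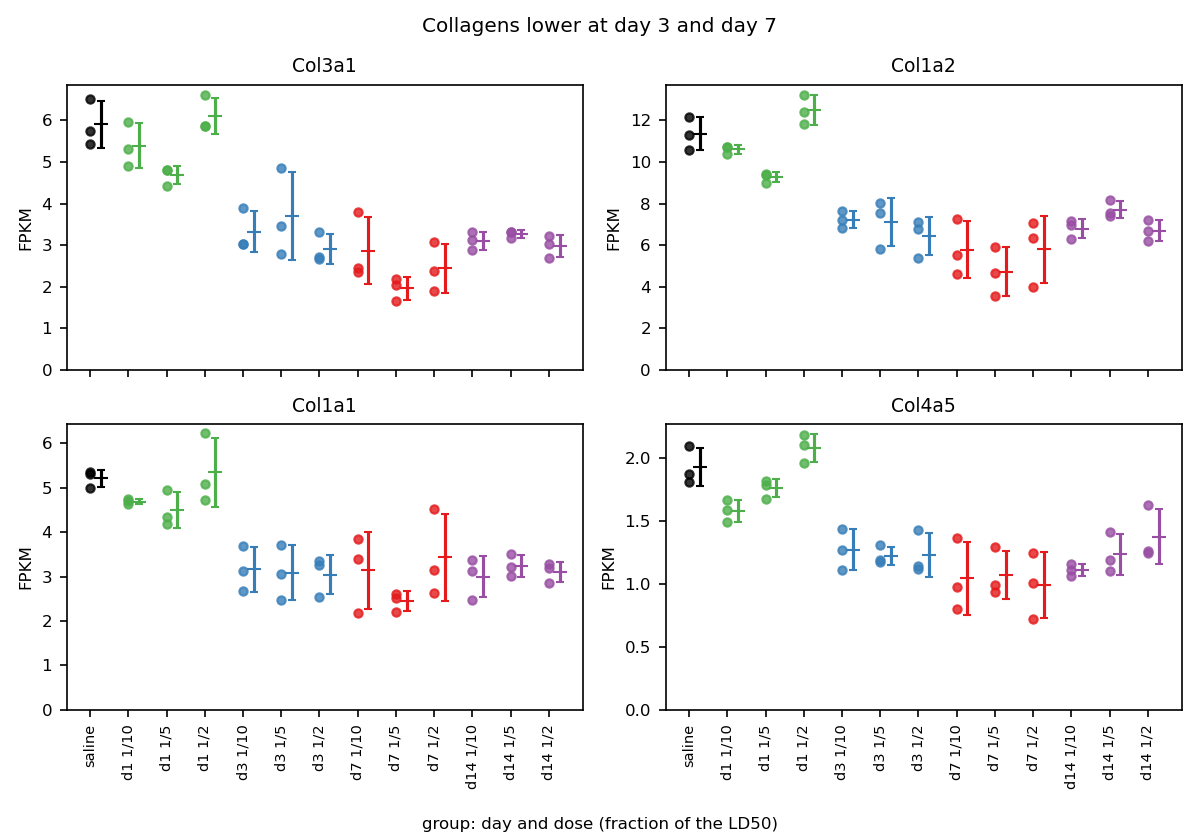
FPKM of Col3a1, Col1a2, Col1a1 and Col4a5 in every library, with group mean and SD (n = 3). Every library of days 3, 7 and 14 lies below the 3 saline libraries for each gene.

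Without the 7 midway libraries, which leaves saline with 2, the calls at day 3 were 2, 2 and 3: Col3a1 and Col12a1 at 1/10, Col1a1 and Col12a1 at 1/5, and Col1a1, Col1a2 and Col3a1 at 1/2 LD50. At 1/5 LD50 the count was 3 without replicate 2 of that group. Col4a5 was lost at every dose without replicate 3 of saline. Col4a5 and Col12a1 were not called once each library's trend on transcript length was removed, where Col12a1 had adjusted p of 0.465, 0.473 and 0.616 in limma. Markers of meningeal fibroblasts were lower in the same libraries: 4, 10 and 9 of 15 tested fell at day 3. Their summed FPKM was 96.7 to 114 in saline and 71.6 to 87.5 at day 3, below saline in 9 of 9 libraries. Of the 17 listed, Dpep1 was at 0 in 12 libraries and the others in none. Whether that difference has a part in the fall of the fibrillar collagens was not tested.

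The other 21 tested collagens were not called against saline at day 3. Col4a2 overlapped with saline, at 12.95 through 13.5 to 14.6 FPKM against 13.3 to 13.9. Col4a1 at day 3 was 11.5 through 12.8 to 13.8, with 5 of 9 libraries below saline. Col18a1 was 2.14 through 5.06 to 7.05 against 6.46 to 7.74, below saline in 8 of 9 libraries but with a wide spread. Some members lay higher than saline at day 3 without passing the test. For Col19a1, a fibril-associated collagen made by neurons, the 9 libraries at day 3 (2.06 through 2.31 to 2.97) all lay above saline (1.76 to 2.02). For Col26a1 this held in 8 of 9 libraries and for Col27a1 in 6. Col19a1 and Col27a1 were picked out after their values were seen. Libraries lay below all saline libraries without overlap for 10, 11 and 11 of the 27 genes at the 3 doses, where 15.8%, 14.9% and 14% of all tested genes did.

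At day 7 the type I and type III chains were again below saline in every library. Of the 27 collagens 9 fell at 1/10, 5 fell and 1 rose at 1/5, and 8 fell at 1/2 LD50. Among all tested genes 15.3%, 8.87% and 6.68% fell and 4.23%, 6.49% and 1.71% rose. Medians of the 27 collagens were -0.24, -0.06 and -0.13, beside -0.09, 0.03 and 0.00 over all tested genes. Libraries of a dose lay below all saline libraries for 12, 7 and 12 of the 27, where 18.2%, 18.8% and 18.7% of all tested genes did.

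Col3a1 ranged from 1.65 through 2.35 to 3.79 FPKM over the 9 libraries of day 7. Its group means were 2.86 ± 0.806, 1.96 ± 0.278 and 2.45 ± 0.588 at 1/10, 1/5 and 1/2 LD50. All of these lay below saline, and the doses overlapped. The log2 changes of Col3a1 were -0.85, -1.22 ± 0.13 and -1.01, with adjusted p of 0.000258, 1.03e-06 and 4.62e-05 in limma. Col1a2 was at 3.57 through 5.51 to 7.26 and Col1a1 at 2.17 through 2.63 to 4.52, both below saline in 9 of 9 libraries. Log2 changes of Col1a2 were -0.88, -1.13 and -0.89 and those of Col1a1 -0.61, -0.85 and -0.51 (limma adjusted p 4.14e-06 to 0.0195).

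Col4a5 (0.719 through 0.989 to 1.36 FPKM) and Col8a1 (0.290 through 0.363 to 0.558) also lay below saline in 9 of 9 libraries at day 7. Both were called lower at each dose, by 0.50 to 0.56 on the log2 scale. For Col8a1, included in the count of falls at each dose, this is again a description. Further falls were seen in 1 dose group each. At 1/10 LD50 these were Col5a1 (-0.40 ± 0.09), which seeds type I fibrils, Col9a3 (-0.58 ± 0.17), Col26a1 (-0.31 ± 0.11), an EMI-domain collagen, and Col4a1 (-0.24 ± 0.08), with limma adjusted p of 0.00378, 0.0163, 0.0487 and 0.0463. At 1/2 LD50 they were Col18a1 (-0.94 ± 0.25), Col6a2 (-0.43 ± 0.12) and Col12a1 (-0.30), with limma adjusted p of 0.018, 0.0208 and 0.0224. The single rise was Col24a1, a fibrillar collagen of developing bone, at 1/5 LD50 (0.35 ± 0.09, limma adjusted p 0.0073), from 0.989, 1.36 and 1.07 FPKM in saline to a mean of 1.72 ± 0.164.

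At 1/10 LD50 the values include the pair of libraries with high mitochondrial share. Leaving these out leaves 1 library in that group, assumed to vary like the other groups, so that a lost call says little. With it 0 collagens were called in limma, 9 had an unadjusted p below 0.05 and 0.0272% of all genes were called. The log2 change was then -0.52 for Col3a1, -0.58 for Col1a2, -0.36 for Col1a1, -0.31 for Col4a5 and -0.52 for Col8a1, whereas Col4a1 was at -0.06 and Col9a3 at 0.0050. Without the 7 midway libraries the counts at day 7 were 2, 5 and 4, and the rise of Col24a1 was not among them. Col3a1 at 1/5 LD50 then had an adjusted p of 0.000553 in limma, and Col3a1 and Col1a2 were called at all 3 doses. At 1/2 LD50 the count was also 4 without replicate 1 of saline or replicate 1 of that group, and either omission ended the call of Col18a1. At 1/5 LD50 no collagen lost its call by leaving out 1 library. Meningeal fibroblast markers fell in 8, 10 and 10 of 15 at day 7, with a summed FPKM of 57.6 to 82.5. Of choroid plexus markers 2, 3 and 4 of 9 tested fell, with a summed FPKM of 208 to 507 against 392 to 542 in saline. Ttr, with a mean of 376 FPKM, makes up most of that sum and was not called at day 7. The part of either list in the collagen values was not tested.

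At day 14 nearly the whole tested family sat low, in a comparison where few genes were called. The libraries of a dose lay below all saline libraries for 24, 21 and 20 of 27 collagens at 1/10, 1/5 and 1/2 LD50, where 15.9%, 9.43% and 11.3% of all tested genes did. Median log2 changes of the 27 were -0.36, -0.31 and -0.30, beside -0.04, 0.01 and -0.01 over all tested genes. Fewer passed the test: 9, 1 and 5 fell and none rose, where 0.388%, 0.102% and 0.333% of all tested genes fell and 0.0476%, 0.0612% and 0.0816% rose. An unadjusted p below 0.05 was found for 21, 17 and 20.

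Both chains of the vessel network were below saline. Col4a1 was at 13.2, 13.8 and 14.1 FPKM in saline and at 9.65 through 10.5 to 11.4 at day 14. Col4a2 was at 13.9, 13.4 and 13.3 in saline and at 9.64 through 10.5 to 11.6. For both, all 9 libraries lay below saline, whereas at day 7 (9.71 to 14.0 and 11.0 to 16.2) they overlapped with it. At 1/10 LD50 the log2 change was -0.46 ± 0.08 for Col4a1 and -0.42 ± 0.07 for Col4a2 (limma adjusted p 0.00613 and 0.00375). At the higher doses neither was called.

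Among the fibrillar chains, Col3a1 was at 2.68 through 3.17 to 3.33 FPKM, Col1a2 at 6.22 through 7.15 to 8.16 and Col1a1 at 2.48 through 3.20 to 3.50, all below saline. Log2 changes of Col3a1 were -0.75, -0.69 and -0.80 (limma adjusted p 0.0043, 0.0204 and 0.0054), and Col3a1 was the 1 collagen called at 1/5 LD50, where 7 fell with median-ratio scaling and 8 with the GC trend removed. Of the beaded filament chains, Col6a1 was at 7.28 through 8.79 to 9.92 against 10.0 to 14.7 in saline. Col6a2 was at 3.02 through 3.82 to 4.26 against 5.41 to 6.47, and fell by 0.50 at 1/10 and by 0.70 at 1/2 LD50 (limma adjusted p 0.0476 and 0.0054). Neither chain overlapped with saline. The remaining calls were Col1a1, Col1a2, Col4a5, Col5a1 and Col8a1 at 1/10 and Col1a1, Col1a2 and Col12a1 at 1/2 LD50. The call of Col8a1, included in the 9 at 1/10 LD50, is again a description.

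Col25a1 and Col19a1 were not low at day 14. Col25a1 was at 7.13 through 7.63 to 9.54 FPKM against 6.94 to 7.60 in saline, and Col19a1 at 1.78 through 1.94 to 2.47, and neither had a library below all saline libraries. Col9a3, at 5.98 through 8.21 to 8.98, overlapped with saline but had 7 of 9 libraries below saline (8.86 to 12.6).

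These calls depend on single libraries. Without the 7 midway libraries no collagen and no other gene was called at day 14 in limma, and 18, 15 and 18 collagens had an unadjusted p below 0.05. At 1/10 LD50 the count was 1 to 5 when any 1 of the 6 libraries was left out, with 1 without replicate 2. At 1/5 LD50 it was 0 without replicate 1 or 3 of saline or any library of that group, and at 1/2 LD50 it was 2 or 3 without any 1 of the 6. The calls of Col4a2 at 1/10 and of Col6a2 and Col3a1 at 1/2 LD50 survived each such omission. Several marker lists were low at day 14 too. Pericyte and vascular smooth muscle markers summed to 56.7 to 66.8 FPKM against 67.7 to 74.9 in saline, oligodendrocyte progenitor markers to 139 to 182 against 187 to 202, and meningeal fibroblast markers to 73.8 to 87.5. Blood markers summed to 161 to 517 against 795 to 926, astrocyte markers to 423 to 451 against 452 to 483 and oligodendrocyte markers to 2333 to 2873 against 3085 to 3257. Each of these sums was below saline in 9 of 9 libraries, while that of neuron markers was above saline in 8 of 9. Snap25, with a mean of 704 FPKM, is the largest part of the neuron sum, and no neuron marker was called at day 14. At 1/10 and 1/2 LD50 the log2 changes of Tubb3, Nefl, Slc17a7 and Gad1 were negative and those of Rbfox3, Snap25, Syt1 and Gad2 positive. The part of these lists in the collagen values was not tested.

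Comparing days with each other uses no saline library, so the unknown day of the saline mice does not enter. With no saline group for each day, time after soman cannot be told apart from whatever else differed between the collection days. Means over the 3 doses were compared, 9 libraries against 9. From day 1 to day 3, 11 of 27 collagens fell and none rose, where 10.6% of all tested genes fell and 12.9% rose. The falls covered 4 of 9 fibrillar chains (Col1a1, Col1a2, Col3a1, Col5a2), 4 of 5 basement membrane chains (Col4a1, Col4a5, Col15a1, Col18a1) and 3 of 13 others (Col6a2, Col12a1 and, again as a description, Col8a1). They were largest for Col3a1 (-0.58 ± 0.08), Col1a2 (-0.57) and Col1a1 (-0.51), with limma adjusted p of 5.02e-06, 1.53e-05 and 4.29e-05. Col4a1 fell by less (-0.17 ± 0.05, limma adjusted p 0.0118). The median over the 27 was -0.16, beside 0.03 over all tested genes. Without the 7 midway libraries 7 fell: Col1a1, Col1a2, Col3a1, Col4a5, Col6a2, Col8a1 and Col12a1. With the transcript length trend removed 6 fell, and Col4a1, Col5a2, Col12a1, Col15a1 and Col18a1 were among those not called. Of the meningeal fibroblast markers 10 of 15 fell over this step, and of the choroid plexus markers 6 of 9. Endothelial markers summed to 97.8 to 159 FPKM at day 3 against 89.6 to 95.8 in saline, above it in 9 of 9 libraries. Ly6c1, at 7.25 to 68.4 FPKM over all libraries, is the member of that sum with the highest mean and the widest range. Of the 12 endothelial markers 4 rose from day 1. The part of these lists in the collagen falls was not tested.

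**Figure D4:**
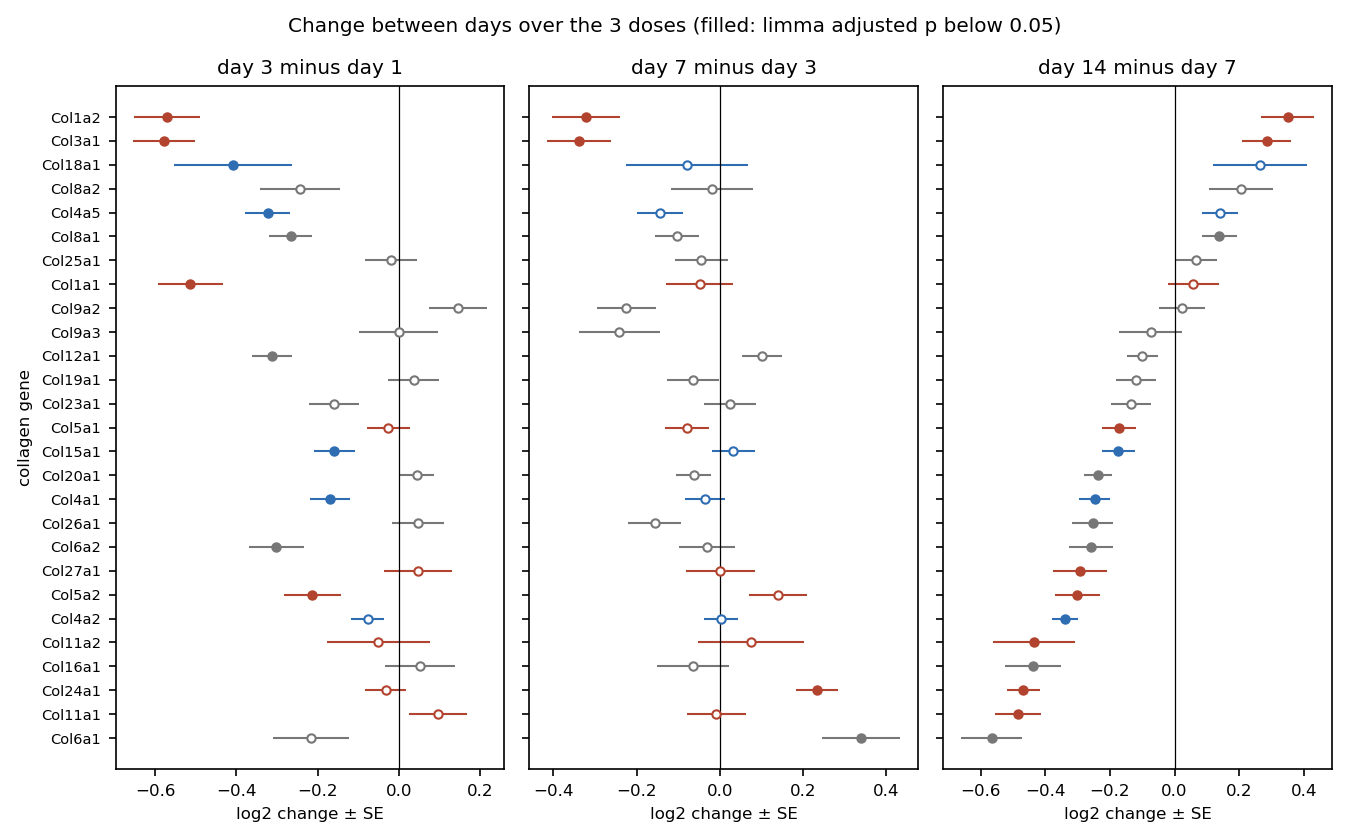
Log2 change (± SE, log2(FPKM + 1) scale) of each tested collagen from day 1 to 3, 3 to 7 and 7 to 14, as means over the 3 doses. Filled points passed the test: 11 falls, then 2 rises and 2 falls, then 3 rises and 14 falls.

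From day 3 to day 7 few collagens changed. Col3a1 (-0.34 ± 0.08, limma adjusted p 0.00923) and Col1a2 (-0.32 ± 0.08, limma adjusted p 0.0202) fell further. Col6a1 (0.34 ± 0.09, limma adjusted p 0.0315) and Col24a1 (0.23 ± 0.05, limma adjusted p 0.00681) rose. Among all tested genes 2.1% rose and 3.97% fell. Both falls were lost without the 2 libraries of high mitochondrial share (limma adjusted p 0.16 and 0.235), and without the 7 midway libraries only the rise of Col24a1 was called. Without replicate 1 of 1/10 LD50 at day 7 the count was 7.

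From day 7 to day 14 most called collagens fell. Of the 27, 3 rose, a smaller share than the 17.1% of all tested genes that rose. Falls numbered 14, a larger share than the 11.5% of all tested genes that fell. The median of the 27 was -0.17, beside 0.01 over all tested genes. Those that rose had fallen at day 3: Col1a2 (0.35 ± 0.08), Col3a1 (0.28 ± 0.08) and Col8a1 (0.14 ± 0.05), with limma adjusted p of 0.00173, 0.0056 and 0.0472. The rise of Col1a2 held without the 2 high-mitochondrial libraries (limma adjusted p 0.0359), and those of Col3a1 and Col8a1 did not (0.108 and 0.0925). That of Col8a1 was also lost in 12 of 18 cases when 1 library was left out. None of the 3 regained the saline range by day 14. Over the same step 7 of 15 meningeal fibroblast markers rose and 1 fell, and 4 of 9 choroid plexus markers rose, and their part in these rises was not tested.

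The 14 falls were 6 fibrillar, 3 basement membrane and 5 other collagens. Col6a1 was at 9.41 through 13.3 to 19.5 FPKM at day 7 and at 7.28 through 8.79 to 9.92 at day 14, a fall by 0.57 ± 0.09 on the log2 scale (limma adjusted p 4.65e-05). Col24a1 was at 1.14 through 1.44 to 1.90 and then at 0.605 through 0.850 to 0.930, with no overlap between the days (-0.47 ± 0.05, limma adjusted p 1.45e-07). At day 7 this gene had been above all saline libraries in 6 of 9, and at day 14 it was below them in 9 of 9. Col4a2 fell by 0.34 ± 0.04 (limma adjusted p 5.94e-07) and Col4a1 by 0.25 ± 0.05 (limma adjusted p 0.000323). Col11a1, a fibrillar chain picked out after its values were seen, was at 2.43 through 3.11 to 4.01 and then at 1.67 through 1.98 to 2.35, again without overlap. Col16a1, a fibril-associated collagen, was at 1.88 through 4.82 to 5.83 and then at 2.54 through 2.99 to 3.62, and the days overlapped.

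The other falls were Col5a1, Col5a2, Col11a2, Col27a1, Col15a1, Col6a2, Col20a1 and Col26a1, by 0.17 to 0.43 on the log2 scale. None of the 14 lost its call when any 1 of the 18 libraries was left out. Without the 7 midway libraries 12 fell, all but Col5a1 and Col27a1. Markers of vessels moved over this step as well: 7 of 12 endothelial and 4 of 11 pericyte markers fell. So did all 6 oligodendrocyte progenitor and all 5 blood markers. Endothelial markers, of which Ly6c1 has the highest mean, summed to 94.3 to 132 FPKM at day 7 and 85.5 to 98.9 at day 14. Whether these lists have a part in the falls was not tested.

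**Figure D5:**
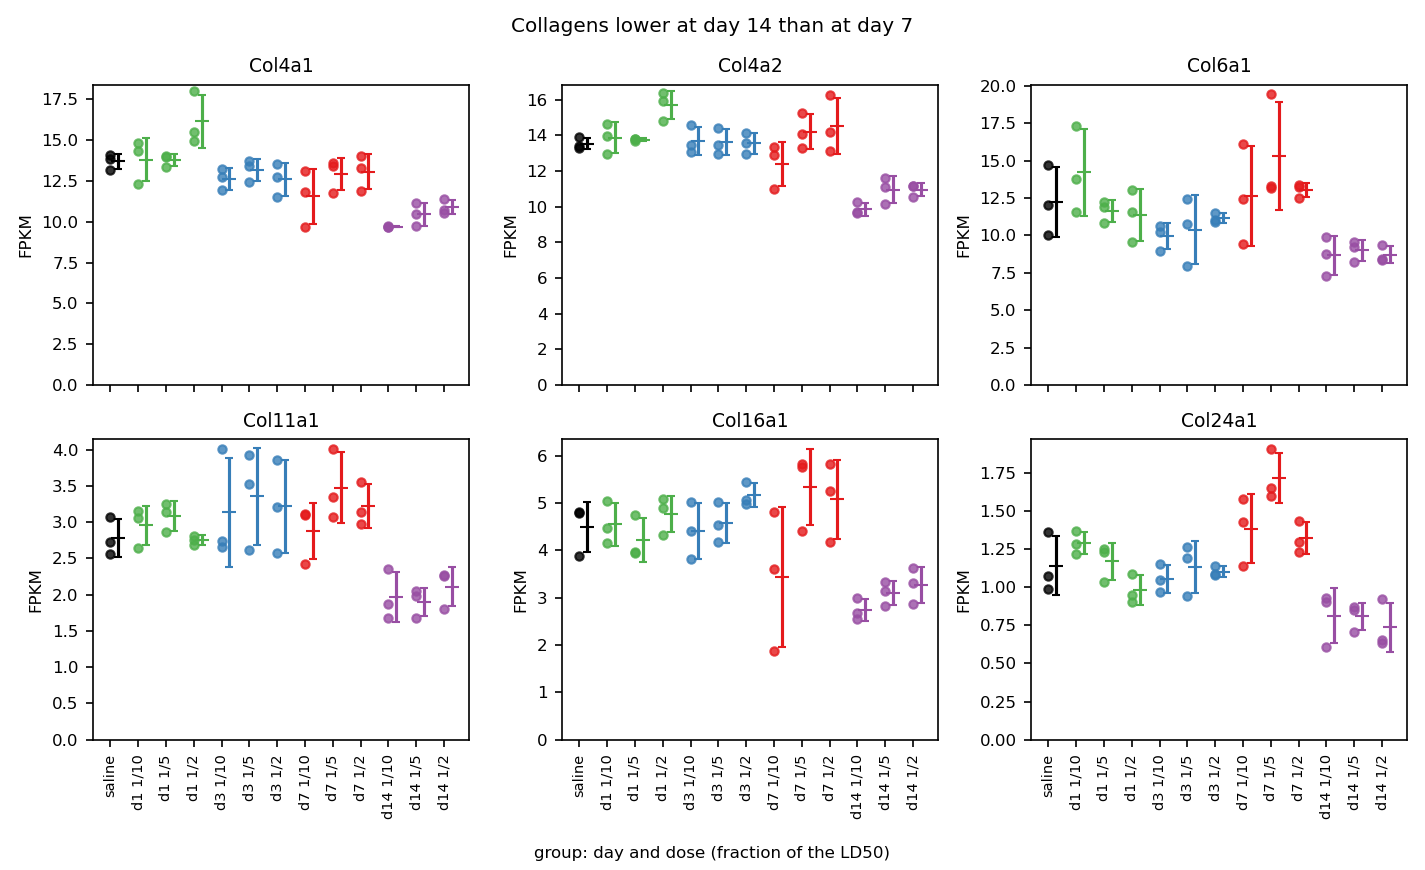
FPKM of Col4a1, Col4a2, Col6a1, Col11a1, Col16a1 and Col24a1 in every library, with group mean and SD (n = 3). For each of the 6 genes all 9 libraries of day 14 lie below the 3 saline libraries, while those of day 7 overlap with them.

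Sorted by the first and last of these steps, which share no library, the 27 collagens took 5 courses. Col1a2, Col3a1 and the sheet collagen Col8a1 fell by day 3 and rose after day 7, where the fall of Col8a1 is again a description. Another 4 fell by day 3 without a later call (Col1a1, Col4a5, Col12a1, Col18a1), and 4 fell at both steps (Col4a1, Col5a2, Col6a2, Col15a1). These courses depend on the setting. The first falls of Col4a1, Col5a2, Col15a1 and Col18a1 were lost without the 7 midway libraries and with the length trend removed. That of Col12a1 was lost with the length trend removed. The later rises of Col3a1 and Col8a1 were lost without the 2 high-mitochondrial libraries. The largest set, 10 genes, was called at the last step and not at the first: Col4a2, Col5a1, Col6a1, Col11a1, Col11a2, Col16a1, Col20a1, Col24a1, Col26a1 and Col27a1. Among those 10, Col5a1 and Col26a1 had also fallen against saline at 1/10 LD50 on day 7. At neither step were Col8a2, Col9a2, Col9a3, Col19a1, Col23a1 and Col25a1 called. A missed threshold does not show that a gene was steady: Col23a1, a membrane-spanning collagen, was at 1.33 through 1.75 to 1.84 FPKM at day 14 against 2.44 to 2.54 in saline, below it in 9 of 9 libraries, and its lowest adjusted p against saline was 0.0517 in limma. Col5a2, Col20a1, Col23a1 and Col27a1 lie outside the rule for named genes and are named after their values were seen.

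Dose differences within a day were called for collagens at day 7 and at no other day. An F-test over the 3 doses called 0 collagens at days 1, 3 and 14 in limma (7, 0 and 0 at an unadjusted p below 0.05, with 0.129%, 0% and 0.034% of all genes called). At day 7 it called 5 of the 27, a smaller share than the 25.4% of all tested genes called there. Col26a1 at day 7 had 1.76, 1.55 and 1.44 FPKM at 1/10 LD50, below the 2.15 to 2.24 of saline, and means of 2.43 ± 0.199 and 2.85 ± 0.473 at 1/5 and 1/2 LD50. Col5a1 had 2.18, 1.77 and 1.77 at 1/10 LD50, means of 2.92 ± 0.491 and 2.42 ± 0.227 at the other doses and 2.80 to 2.87 in saline. Both were lowest at the lowest dose. The limma adjusted p of the dose test was 0.00163 for Col26a1 and 0.00369 for Col5a1. These were also the 2 collagens, of 27, whose dose effect differed between days in the interaction F-test, where 1.59% of all tested genes were called.

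The other 3 dose calls were Col9a3, Col16a1 and Col4a2. Col9a3 at 1/10 LD50 was 10.5 in replicate 1 and 6.68 and 4.03 in the high-mitochondrial replicates, against means of 10.4 ± 0.933 and 8.62 ± 0.923 at higher doses (limma adjusted p 0.032). Col16a1 was 4.82, 3.60 and 1.88 and Col4a2 13.3, 12.9 and 11.0 in the same order (limma adjusted p 0.00964 and 0.0455). In each gene replicate 3, the library with the highest mitochondrial share, was the lowest. Without those 2 libraries 0 of the 5 were called (10 collagens at an unadjusted p below 0.05, 0.197% of all genes called). The count was 8 without replicate 1 of 1/10 LD50, 2 without its replicate 3, 3 without replicate 2 of 1/5 LD50 and 1, Col26a1, without the 7 midway libraries. For Col1a1, Col1a2 and Col3a1 no dose difference was called at any day. With 3 libraries a dose, Col3a1 means at day 3 were 3.32 ± 0.499, 3.70 ± 1.06 and 2.90 ± 0.356, and at day 14 3.10 ± 0.220, 3.27 ± 0.0884 and 2.97 ± 0.266.

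Ratios of chains within a library do not depend on how the library was scaled, and are given as a description. Col4a2 to Col4a1, whose chains assemble together, was 0.945 to 1.05 in saline and 0.909 to 1.22 over all libraries, above saline in 5 of 9 libraries at day 3 and in 6 of 9 at day 7. Col1a2 to Col1a1 was 2.12 to 2.28 in saline and 1.35 through 1.85 to 2.53 at day 7, below saline in 7 of 9. Col3a1 to Col4a1, a fibre chain over a vessel chain, was 0.394 to 0.494 in saline. This ratio was 0.198 through 0.255 to 0.363 at day 3, 0.140 through 0.2002 to 0.289 at day 7 and 0.250 through 0.304 to 0.342 at day 14, below saline in 9 of 9 libraries each time. Col4a5 to Col4a1 was 0.135 to 0.149 in saline and 0.0541 through 0.0840 to 0.104 at day 7. Within type IV, then, the chains moved unequally. Col6a1 to Col6a2 was 1.61 to 2.28 in saline and 1.80 through 3.03 to 3.58 at day 7, above saline in 8 of 9.

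Genes that fold, process, bind or break down collagen were counted from lists chosen with earlier results of these data known. Their calls come from the fit of all libraries, the 7 midway ones included. The shares of all tested genes that fell, 5.36%, 6.12% and 4.65% at day 3 and 15.3%, 8.87% and 6.68% at day 7, apply to each list. Of 19 genes for folding and chain modification 1, 2 and 2 fell at day 3 and 2, 1 and 2 at day 7, which is near these shares. At day 3 and day 7 there was also 1 rise at 1/10 LD50, and at day 7 1 at 1/5 LD50. P4hb, a prolyl hydroxylase subunit with the highest mean of the list (39.3 FPKM), was not called in any comparison. Sec23a, a coat protein of collagen export (26.9 FPKM), fell at 1/10 and 1/5 LD50 at day 7 (-0.15 and -0.18, limma adjusted p 0.022 and 0.0091). P4ha1, a catalytic prolyl hydroxylase chain, and Serpinh1, the collagen chaperone, fell at 1/10 LD50 at day 1, where no collagen was called. P4ha1 went from 16.2 ± 1.13 to 10.7 ± 0.537 FPKM (-0.55, limma adjusted p 7.6e-06) and Serpinh1 from 13.9 ± 0.950 to 8.81 ± 0.132 (-0.61, limma adjusted p 0.022). P4ha1 and Serpinh1 are named after their values were seen.

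Of 8 tested genes for propeptide cleavage and cross-linking 3, 3 and 1 fell at day 3 and 1, 3 and 3 at day 7. Its most abundant members, the procollagen proteinase Bmp1 (21.5 FPKM) and its enhancer Pcolce (5.32), were not called. Among 12 tested matrix proteins that bind collagen, 3, 4 and 5 fell at day 3 and 2, 8 and 7 at day 7, with 1 rise at 1/10 LD50. Sparc, a collagen-binding glycoprotein of astrocytes and vessels at 179 ± 18.4 FPKM in saline, was not called. Fn1, the fibronectin scaffold on which fibres assemble, fell at 1/5 and 1/2 LD50 at day 7 (-0.42 and -0.67, limma adjusted p 0.032 and 0.002). Dcn, Ogn and Lum of this list are also among the meningeal fibroblast markers.

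Of 15 tested basement membrane partners 2, 3 and 3 fell at day 3, 5, 6 and 6 fell at day 7 (with 2 rises at 1/5 LD50), and 8 fell from day 1 to day 3. Agrn, a heparan sulfate proteoglycan, fell at 1/10 LD50 at day 7 (-0.32, limma adjusted p 0.013) and from day 7 to 14 (-0.21, limma adjusted p 0.0024), the latter together with 4 other members. Lamb2, a laminin chain, was not called. Among 8 tested collagen receptors 2, 3 and 2 fell at day 3. At day 7 Mrc2 (-0.64, -0.71 and -0.70) and Ddr2 (-0.34, -0.33 and -0.43) fell at each dose. Itga10 fell there at 1/10 and 1/2 LD50 (-0.25 and -0.28). The limma adjusted p of these falls was 1.18e-05 to 0.0469, and Mrc2, Ddr2 and Itga10 are named after their values were seen. The only rise against saline at day 7 was that of Adgrg1, the receptor of type III collagen, at 1/10 LD50 (0.34, limma adjusted p 0.0073), where Col3a1 fell. Adgrg1 fell from day 7 to 14 (-0.23, limma adjusted p 0.00067). In the dose test of day 7 Itga10, Adgrg1 and Ddr1 were called (limma adjusted p 0.029, 0.039 and 0.043), where 25.4% of all tested genes were. Of 9 tested genes of collagen breakdown 1, 2 and 2 fell at day 3, and 1 rose at 1/5 LD50. The rise was Reck, a membrane inhibitor of metalloproteinases (0.27, limma adjusted p 0.0428), named after its values were seen. At day 7 Mmp16 fell at each dose (-0.29, -0.60 and -0.35), Ctsk at 1/10 LD50 (-0.41) and Mmp14 at 1/5 LD50 (-0.35). These were the falls of the list at that day (limma adjusted p 1.71e-05 to 0.0173), and the genes are named after their values were seen. The inhibitor Timp2 was not called, and Timp3 rose at 1/10 LD50 at day 7 (0.35, limma adjusted p 0.031). The calls at 1/10 LD50 at day 7 and in the dose test of that day include the 2 high-mitochondrial libraries.

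Promoters are shown for 3 genes as examples of different courses: Col3a1 and Col8a1, which fell by day 3 and rose after day 7, and Col24a1, which fell after day 7. The fall of Col8a1 is again a description. These 3 genes were picked after their values were seen, among windows that overlap no annotated transcript. The windows are the 250 bases before the RefSeq start in GRCm38.p6, 5′ to 3′ on the gene's strand, with matches to the TATA box (TATAAA) or the GC box (GGGCGG, read on either strand) in capitals. Col3a1 lies at chr1:45311288-45311537 on the plus strand, Col8a1 at chr16:57754738-57754987 on the minus strand and Col24a1 at chr3:145292222-145292471 on the plus strand.
Col3a1: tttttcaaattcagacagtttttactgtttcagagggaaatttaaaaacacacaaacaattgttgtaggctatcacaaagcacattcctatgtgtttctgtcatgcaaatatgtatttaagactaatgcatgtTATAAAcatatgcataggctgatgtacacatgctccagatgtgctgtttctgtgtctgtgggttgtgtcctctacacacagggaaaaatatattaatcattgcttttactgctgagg
Col8a1: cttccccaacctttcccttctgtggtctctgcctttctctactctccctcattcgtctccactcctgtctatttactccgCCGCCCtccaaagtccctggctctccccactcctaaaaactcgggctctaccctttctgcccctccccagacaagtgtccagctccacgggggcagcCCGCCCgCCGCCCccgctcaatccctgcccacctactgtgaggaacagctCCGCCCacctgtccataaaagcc
Col24a1: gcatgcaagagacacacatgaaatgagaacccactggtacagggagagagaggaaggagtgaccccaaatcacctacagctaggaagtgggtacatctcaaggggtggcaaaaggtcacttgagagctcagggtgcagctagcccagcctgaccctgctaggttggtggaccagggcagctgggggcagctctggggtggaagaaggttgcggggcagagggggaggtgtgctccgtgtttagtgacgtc
Col3a1 and Col8a1 were both called from day 1 to day 3 and from day 7 to day 14, and their windows are unlike. Col3a1 has 35.2% G and C, no CpG and 1 match to the TATA box letters, while Col8a1 has 60.8%, 10 CpG and 4 GC box matches. The match in Col3a1 lies near the middle of the window, not close to the start, and whether it works as a TATA box was not tested. Col24a1 has 58% and neither motif.

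Windows were found for 35 of the 44 collagens, 38 windows in all. Searched on both strands, the GC box was in 22 of 38 (57.89%) and in 32.74% of the 32851 windows of all genes. The letters CCAAT were in 13 (34.21% and 33.85%) and the TATA box in 5 (13.16% and 12.37%). The median G and C content was 59% in collagen windows and 52.4% in all. Col4a1 and Col4a2 start head to head on chromosome 8, 21 bases apart at 11312826 on the minus and 11312805 on the plus strand. With the starts in this order, both transcripts overlap at their first bases. Col4a6 and Col4a5 also read away from each other on chromosome X. Their starts, at 141474076 and 141475419, are separated by 1343 bases without such overlap.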

How the data were processed

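Mouse brain RNA, selected with poly(dT) beads, was measured in 39 libraries, per the labels' protocols. The deposited values are FPKM, computed by the authors, 1 column per library and not pooled. HISAT2 and the build GRCh38, a human build, stand in the submitters' processing notes without version, so no coordinates were taken from the files, and the program that computed FPKM is not given in the sources used here. Depth is unknown: 2.08% of low-value steps were whole within 0.01.

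Genes at 1 FPKM or more in at least 3 libraries (14701) were fitted as log2(FPKM + 1), pseudocount 1, with limma 3.58.1 in R 4.3.3 (lmFit, eBayes with trend), 13 groups in 1 model, and p-values adjusted by Benjamini-Hochberg at a threshold of 0.05. There were 20 comparisons: 12 with saline, 3 between days, 4 among doses within a day and 1 of dose by day. Members and lists were chosen with earlier results of these data known. Named collagens were the 4 of highest mean FPKM of each kind, the largest called rise and fall (smallest p in F-tests) of each comparison, and all in counts of 5 or fewer. For partner lists they were the 2 of highest mean. Midway libraries were those with more genes (mean FPKM 5 or more, 2-fold apart in the other 2 of the group) at positions 0.3 to 0.7 between the others than any library of another group. The alternatives tried were median-ratio scaling, no filter, a pseudocount of 0.1, fits of 2 groups alone, a replicate block, each library left out, the high-mitochondrial or midway libraries left out, and a transcript length trend removed (lowess, span 0.5). Removal of a GC trend was added after seeing the data. The fit was tested on simulated data. Summaries used Python 3.11.15, pandas 2.3.3, numpy 2.4.6 and matplotlib 3.10.9. Promoters are from RefSeq (GRCm38.p6). No protein sequence is shown.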

Additional observations from a re-analysis of the deposited data

Results flagged for a closer look

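In 2 collagens the effect of dose differed between days by the F-test of the dose by day interaction (limma, 36 soman libraries), where 1.59% of all tested genes were called. They were Col26a1 (adjusted p 0.0415) and Col5a1 (adjusted p 0.0497). Col26a1 means at 1/10, 1/5 and 1/2 LD50 were 2.73, 2.38 and 2.40 FPKM at day 1, where the lowest dose was highest, and 1.58, 2.43 and 2.85 at day 7, where it was lowest. Col5a1 means were 3.10, 2.55 and 2.31 at day 1 and 1.91, 2.92 and 2.42 at day 7. When each of the 36 libraries was left out in turn, Col26a1 lost its call in 19 cases (adjusted p 0.00766 to 0.127) and Col5a1 in 27 (0.00544 to 0.133). Neither was called without the 2 libraries of high mitochondrial share, both of 1/10 LD50 at day 7.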

How the results depend on the processing

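Counts are of collagens called in limma out of 27, and doses are in order 1/10, 1/5 and 1/2 LD50. Leaving out 1 library at a time gave 4 to 7, 3 to 8 and 5 to 6 at day 3, 6 to 13, 6 to 7 and 4 to 7 at day 7, and 1 to 5, 0 to 1 and 2 to 3 at day 14. It gave 8 to 12 for day 3 against 1, 3 to 7 for day 7 against 3, 16 to 19 for day 14 against 7, 2 to 8 for doses at day 7 and 0 to 5 for dose by day, which was 5 without replicate 1 of 1/10 LD50 at day 7. Dose by day, 2 calls as reported, gave 1 with a pseudocount of 0.1, the replicate block, the length trend removed or the 2 high-mitochondrial libraries left out, and 0 with no filter, median-ratio scaling, the GC trend removed or the 7 midway libraries left out. With no filter day 14 at 1/2 LD50 gave 3 and day 7 against 3 gave 2. Median-ratio scaling gave 7 at 1/5 LD50 on day 14. Without the 2 high-mitochondrial libraries 1/10 LD50 at day 7 and doses at day 7 gave 0, and Col9a3 there changed from -0.58 to 0.0050 (adjusted p 0.995). Without the 7 midway libraries the counts were 2, 2 and 3 at day 3, 2 at 1/10 and 4 at 1/2 LD50 at day 7, 0 at every dose at day 14, 7 for day 3 against 1, 1 for day 7 against 3 and 1 for doses at day 7. With the length trend removed they were 5 for 1/2 LD50 at day 7, 2 for 1/5 LD50 at day 14 and 6 for day 3 against 1. With the GC trend removed, an alternative chosen after seeing the data, they were 8 for 1/5 and 3 for 1/2 LD50 at day 14. In fits of only the 2 groups compared they were 3 and 2 at 1/10 and 1/5 LD50 on day 3, 0 and 5 at 1/10 and 1/2 on day 7, and 5 and 3 at 1/10 and 1/5 on day 14. Beyond the left-out libraries and the smaller sample number of those fits, the cause was not tested. At 1/10 LD50 on day 7 the 0 rises and 9 falls became 1 and 7 with the GC trend and 1 and 6 with the length trend removed.

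Replicate numbers did not pair the libraries: deviations of same-numbered libraries had a median correlation of 0.00535 (-0.326 to 0.355), over 0.1 in 39 of 234 pairs, and 14 of 39 libraries correlated best with their own number. Of 83 log2 changes of named collagens the replicate block kept 80 on their side of the threshold. Depth is unknown, so counting error of low collagens cannot be given.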

Other observations

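Of the 17 collagens that seldom reached 1 FPKM and were not tested, Col4a6 had the clearest course. Col4a6, the type IV chain that assembles with Col4a5 and whose gene starts beside it, was at 0.507, 0.528 and 0.575 FPKM in saline. It was at 0.196 through a median of 0.372 to 0.437 at day 3, 0.117 through 0.234 to 0.368 at day 7 and 0.259 through 0.328 to 0.467 at day 14. All 9 libraries of each of these days lay below saline. With no filter on low values it fell at day 7 at each dose (-0.29, -0.29 and -0.31 ± 0.07, limma adjusted p 0.0172, 0.0158 and 0.0152). Of the other untested members, Col5a3 (-0.17, limma adjusted p 0.0151) and Col13a1 (-0.14, limma adjusted p 0.0258) fell from day 1 to day 3 under that setting. Col6a5 fell (-0.06, limma adjusted p 0.0361) and Col13a1 rose (0.13, limma adjusted p 0.0374) from day 7 to day 14, and Col28a1 was called among doses at day 7 (limma adjusted p 0.0363). Col2a1 and Col7a1 lay below saline in 9 of 9 libraries at day 14 without a call. These genes were singled out after their values were seen.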
